A study of Mus musculus with 43 samples.

Results

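The cholesterol synthesis genes described here were Hmgcs1, Idi1, Fdps, Fdft1, Sqle and Lss, which encode enzymes of the pathway, and Srebf2 and Insig1, which encode a transcription factor and a sensor that set its activity. They were chosen by gene symbol, and each of the 8 symbols matched 1 of the 54532 rows of the count table. The study sequenced total RNA from brain endothelial cells (EC) sorted as CD45-, CD11b- and CD31+ from untreated mice 2 months old. The 43 libraries came from 2 recently wild-derived strains, CAST/EiJ (n = 6) and WSB/EiJ (n = 6), and from 5 long-inbred strains, 129S1/SvImJ (n = 9), A/J (n = 5), C57BL/6J (n = 6), DBA/2J (n = 5) and NOD/ShiLtJ (n = 6). Of these, 21 were from cortex and 22 from hippocampus, and 16 were from female and 27 from male mice. Titles of samples include a tag, high or low, whose meaning is not given in the sources used here, and 14 male libraries carried high and 13 low, against 15 and 1 of the female libraries. The sort takes EC of the whole vascular tree together. No label names the mouse of a library. The titles of 4 female 129S1/SvImJ libraries end in a number, the same one in 3 of them (2 of cortex and 1 of hippocampus), but what it marks is not given in the sources used here. Every library was counted as a separate sample, though some may share an animal. The p-values measure the spread between libraries, part of which may be technical. Origin belongs to the strain, so comparisons by origin rest on 2 against 5 strains. Their fits had no strain term, and their SEs, intervals and p-values do not measure the spread between strains.

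Cells make cholesterol from acetyl-CoA through the mevalonate pathway. HMG-CoA synthase (Hmgcs1) acts early in the pathway, isopentenyl-diphosphate isomerase (Idi1) and farnesyl diphosphate synthase (Fdps) build the isoprenoid chain, squalene synthase (Fdft1) commits it to sterols, and squalene epoxidase (Sqle) and lanosterol synthase (Lss) turn squalene into the first sterol. SREBP-2, the product of Srebf2, is held in the endoplasmic reticulum by INSIG proteins while sterols are plentiful and is released to activate the genes of the pathway when sterols fall. Insig1 is itself a target of the SREBPs. The blood-brain barrier keeps plasma lipoproteins out of the brain, and brain cells depend largely on cholesterol made locally.

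SREBP-2 acts on the pathway through promoters, and 3 promoter sequences are printed to compare an enzyme gene with the genes of the factor and of the sensor. RefSeq promoters, from 250 bases before to 50 bases after the start site in GRCm38.p6, were at hand for Hmgcs1, Idi1, Insig1, Srebf2 and Lss. Sequences run 5′ to 3′ on the plus strand and stop before the first annotated transcript start. Capitals mark matches on either strand to TCACNCCAC, a form of the sterol regulatory element, to CCAAT, the core bound by NF-Y, and to GGGCGG, the core bound by Sp1.
Hmgcs1, chr13:119690101-119690350: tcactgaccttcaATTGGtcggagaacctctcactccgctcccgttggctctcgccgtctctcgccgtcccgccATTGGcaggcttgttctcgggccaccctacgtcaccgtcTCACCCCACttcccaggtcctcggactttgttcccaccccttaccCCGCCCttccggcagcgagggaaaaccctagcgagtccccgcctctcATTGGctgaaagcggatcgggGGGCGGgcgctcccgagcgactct
Insig1, chr5:28071162-28071362: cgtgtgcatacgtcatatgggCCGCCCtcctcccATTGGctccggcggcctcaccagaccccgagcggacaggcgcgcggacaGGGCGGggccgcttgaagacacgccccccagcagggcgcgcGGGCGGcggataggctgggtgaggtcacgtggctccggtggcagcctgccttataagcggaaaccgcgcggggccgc
Srebf2, chr15:82147019-82147180: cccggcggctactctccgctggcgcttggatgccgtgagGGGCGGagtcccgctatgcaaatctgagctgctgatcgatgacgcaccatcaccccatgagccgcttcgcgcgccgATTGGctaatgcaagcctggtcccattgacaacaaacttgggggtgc
The Hmgcs1 promoter held TCACCCCAC 137 bases before its start site, and none of the other 4 gene promoters held TCACNCCAC, whose letters stood in 408 of 32851 promoters of the same length (1.24%). Both CCAAT and GGGCGG stood in 5 of 5, against 37.4% and 35.7% of all promoters. Among other enzymes of the pathway, 0 of 14 genes held TCACNCCAC, 13 held CCAAT and 12 held GGGCGG. No match says only that these letters are not in this window.

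Library totals ranged from 1626534 to 49372356 counts, with a median of 5790701. Female and male libraries stood apart in composition, while their depths overlapped. Counts from 3 genes that resemble ribosomal RNA (Gm23935, Gm42418 and Gm26917) took 1.59% to 12.1% of female and 12.97% to 29.3% of male libraries. Female totals ran from 2731954 to 49372356 counts (median 21242058) and male totals from 1626534 to 10567966 counts (median 5257353). All 20 endothelial markers had counts, 19 of them in every library, and their summed level was 17351 to 41055 CPM (counts scaled to a common library size), against 34.5 to 800 CPM for neuronal markers. Markers of cells outside the sorting gate were also present: the 10 pericyte markers summed to 1953 to 9552 CPM, 10 astrocyte markers to 1108 to 19792 CPM, and 10 microglial markers, none of them found in every library, to 5.71 to 152 CPM. In sorted cells of this kind, fewer cells of a type and less RNA per cell cannot be told apart.

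Srebf2 and Hmgcs1 reached 1 CPM in all 43 libraries, Insig1 and Fdft1 in 42, Lss in 40, Sqle in 39, Idi1 in 33 and Fdps in 12. Levels are in CPM after TMM scaling, which evens out differences in composition between libraries. Srebf2 was the highest, at 136 ± 39.2 CPM (SD, n = 43), and Hmgcs1 followed at 74.7 ± 28.9 CPM (SD, n = 43). Insig1 had 21.5 ± 12.2 CPM, Fdft1 22.3 ± 17.3 CPM, Lss 16.2 ± 18.1 CPM, Sqle 13.6 ± 12.4 CPM, Idi1 8.14 ± 9.14 CPM and Fdps 1.82 ± 3.65 CPM (SD, n = 43 each). Per kilobase of exon, the mean level was 18.996 CPM for Srebf2, 16.3 for Hmgcs1, 6.94 for Insig1, 5.27 for Fdft1, 2.45 for Sqle, 2.32 for Idi1, 1.502 for Lss and 0.432 for Fdps. On this scale Insig1 stood above Fdft1, and Lss, whose exons cover 10787 bases, stood below Sqle and Idi1. These lengths join the exons of all annotated transcripts of a gene. The longest protein-coding transcript of Lss has 4667 bases, so the place of Lss in this order depends on the length used.

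**Figure D1:**
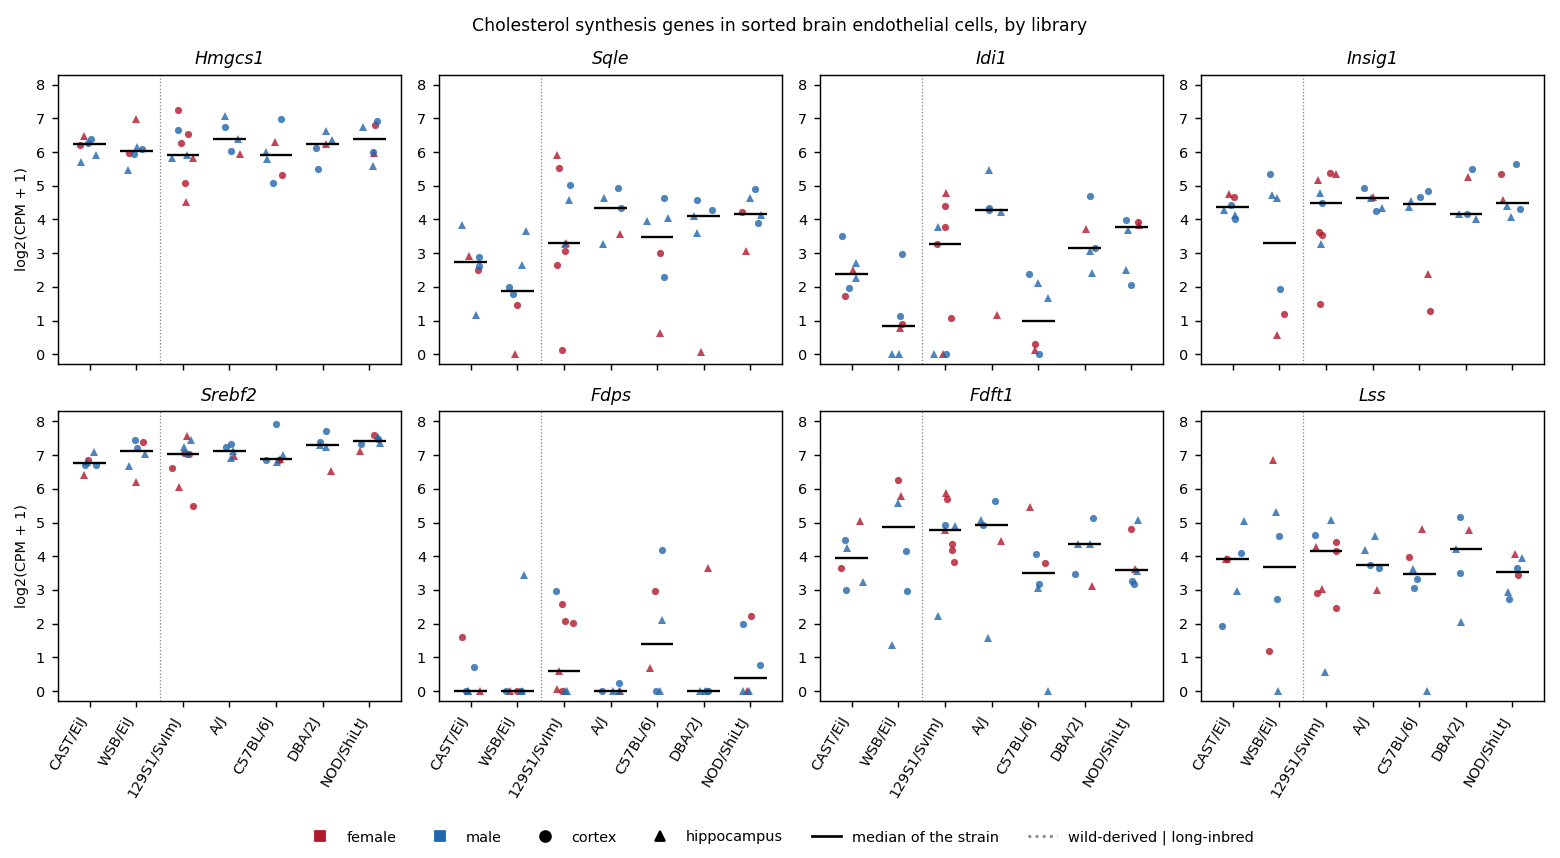
Level of each gene in every library, as log2(CPM + 1) on the y axis, by strain on the x axis; red points are female and blue points male libraries, circles cortex and triangles hippocampus, bars are strain medians, and the dotted line divides wild-derived from long-inbred strains. Srebf2 and Hmgcs1 stayed at or above 21.8 CPM in all 7 strains, whereas Idi1 and Fdps reached 0 in 6 and 25 libraries.

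The spread between libraries was smallest for the most abundant genes. The coefficient of variation over all 43 libraries was 28.7% for Srebf2 and 38.6% for Hmgcs1, 56.6% for Insig1, 77.6% for Fdft1, 91.0% for Sqle, 112% for Lss and Idi1 alike, and 201% for Fdps. Srebf2 ran from 44.3 to 242 CPM with a median of 132 CPM, and Hmgcs1 from 21.8 to 151 CPM with a median of 68.2 CPM. Neither gene came near 0 in any library.

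Several enzyme genes were at or near 0 in single libraries, some of them among the deepest. Fdps had at most 3 counts in 28 libraries, Idi1 in 11, Lss in 4, Sqle in 3, and Insig1 and Fdft1 in 2 each, whereas Hmgcs1 and Srebf2 never fell that low. The deepest library, from female DBA/2J hippocampus, held 2 counts of Sqle (0.0358 CPM), while the other 4 DBA/2J libraries held 11.04, 16.1, 18.6 and 22.7 CPM. A female 129S1/SvImJ hippocampus library of 38277327 counts held 0 counts of Idi1, a count that allows up to 0.0750 CPM, while the highest library of that strain had 26.8 CPM. Of the 13 libraries with at least 15000000 counts, 5 held at most 3 counts of Fdps, 2 of Idi1 and 2 of Sqle. Reads carried no molecular identifiers, so these limits cover counting error only.

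**Figure D2:**
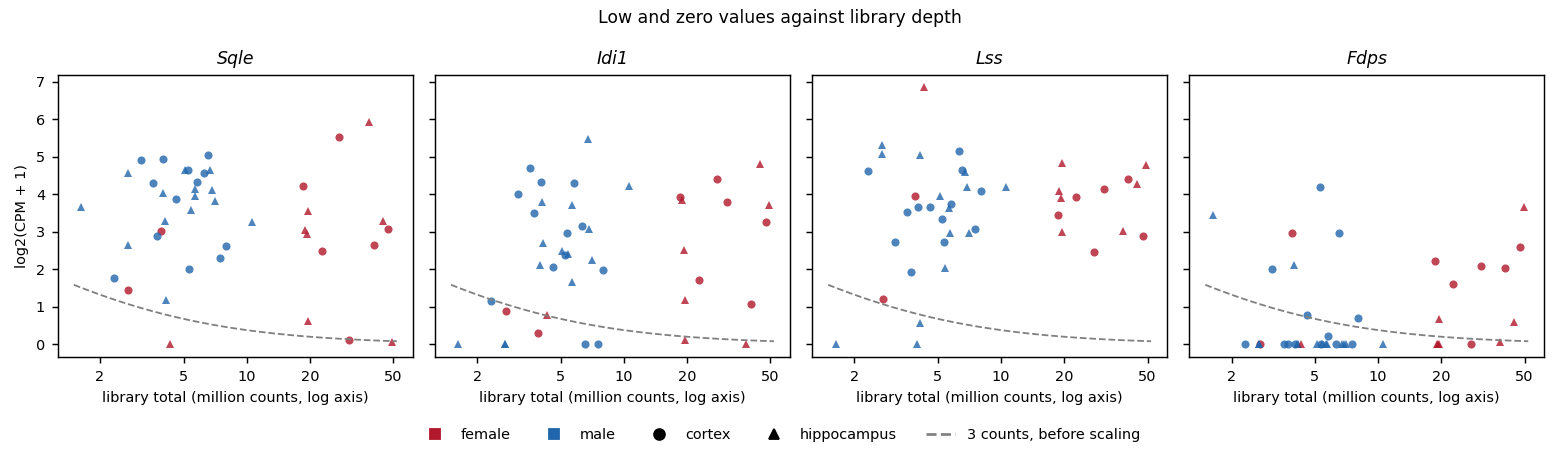
Level of Sqle, Idi1, Lss and Fdps as log2(CPM + 1) on the y axis against the library total on a log x axis; points are single libraries coloured and shaped by sex and region, and the dashed line marks 3 counts. Values at or under the line occurred in shallow and in deep libraries for Sqle, Idi1 and Fdps, and only under 15000000 counts for Lss.

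On mm10, the other genes lie on chromosome 13 (Hmgcs1, bases 119690379 to 119708260, and Idi1, bases 8885501 to 8892451), chromosome 15 (Sqle, bases 59315077 to 59331192), chromosome 5 (Insig1, bases 28071363 to 28078662) and chromosome 10 (Lss, bases 76531588 to 76557138), all on the plus strand. The counts of some genes are less certain than those of others. Fdps (chromosome 3, bases 89093588 to 89101959, minus strand) lies on the same strand as the protein-coding gene Gm43738, which was listed at 0. Together with 5 processed pseudogenes, Gm43738 makes 6 annotated genes with stretches 91.1% to 100% identical to Fdps, and their summed mean was 1.20 CPM against 1.82 CPM for Fdps. How counting treated reads that match more than 1 of these genes is not given in the sources used here. Such reads could be split between genes or left uncounted, so the level of Fdps is uncertain. A count of 0 for Fdps may therefore not mean that its RNA was absent. Fdft1 (chromosome 14, bases 63145150 to 63179578) overlaps Ctsb on the other strand, a gene with a mean of 117 CPM, and the counting is not stated to use strand. Mir33, the microRNA in an intron of Srebf2 (chromosome 15, bases 82147181 to 82205379), had 0 counts in all 43 libraries, which allows up to 0.00549 CPM over their 546865410 counts. A library of long total RNA is not made to capture mature microRNAs.

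Among the 7 strains, no gene of the 8 passed the threshold (edgeR's quasi-likelihood test, Benjamini-Hochberg adjusted p under 0.05 over all genes), where 2.68% of the 29120 genes tested did. The smallest adjusted p among strains was 0.294, for Idi1, and that of Sqle was 0.554 by the same edgeR test. With a single dispersion taken from the most abundant genes, an alternative chosen after seeing the data, edgeR called both, with adjusted p = 0.0159 for Idi1 and 0.0409 for Sqle. The number of all genes called also grew under that setting, from 781 to 3646.

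Idi1, whose strain levels had the smallest p, was highest in A/J, with 1.25, 17.7, 18.6, 19.2 and 42.99 CPM, where 1 female hippocampus library stood far below the other 4. DBA/2J had 4.31, 7.36, 7.96, 12.1 and 25.0 CPM, and NOD/ShiLtJ ran from 3.14 to 14.9 CPM with a median of 12.6 CPM. CAST/EiJ ran from 2.30 to 10.3 CPM with a median of 4.23 CPM, and 129S1/SvImJ from 0 to 26.8 CPM with a median of 8.57 CPM. C57BL/6J ran from 0 to 4.23 CPM with a median of 1.20 CPM, and WSB/EiJ from 0 to 6.84 CPM with a median of 0.798 CPM. The low strains were therefore 1 wild-derived and 1 long-inbred strain. DBA/2J and C57BL/6J were the only pair of strains whose Idi1 levels did not overlap, with 4.31 against 4.23 CPM at the nearest. That pair did not pass adjustment (exact permutation test, adjusted p = 0.156). How often strain pairs do not overlap in other genes was not tested. Of the 6 WSB/EiJ libraries, 5 had at most 3 counts of Idi1 in totals of 1626534 to 4309378 counts, so their order was not detectable at this depth.

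Sqle was highest on the log2 scale in A/J, with 8.61, 10.8, 19.1, 23.9 and 29.4 CPM, and in NOD/ShiLtJ, from 7.31 to 28.9 CPM with a median of 17.1 CPM. It was lowest in the wild-derived strains, where CAST/EiJ ran from 1.25 to 13.2 CPM with a median of 5.76 CPM and WSB/EiJ from 0 to 11.7 CPM with a median of 2.72 CPM. The spread was widest in 129S1/SvImJ, from 0.0883 to 59.5 CPM with a median of 8.77 CPM. C57BL/6J ran from 0.547 to 23.9 CPM with a median of 10.7 CPM, so that it overlapped every other strain.

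Srebf2 did not pass the threshold among strains, whose means of log2(CPM + 1) ran from 6.77 in CAST/EiJ to 7.40 in NOD/ShiLtJ. NOD/ShiLtJ was the highest, from 138 to 194 CPM with a median of 169 CPM. CAST/EiJ had the lowest mean, with 84.5 to 136 CPM and a median of 107 CPM. These strains did not overlap, but the pair did not pass adjustment (exact permutation test, adjusted p = 0.156). DBA/2J had 92.1, 149, 156, 167.9 and 208 CPM, and A/J had 119.7, 125.1, 138, 150.5 and 160.4 CPM. WSB/EiJ, the other wild-derived strain, ran from 73.1 to 175 CPM with a median of 138 CPM and overlapped all of them. C57BL/6J had 1 library at 242 CPM and 110.2 to 126 CPM in the others. The mean of 129S1/SvImJ was 6.84 on the log2 scale, near that of CAST/EiJ. The sexes were not spread evenly over the strains, and sex was not a term of the main test. Pericyte markers also differed in level between strains, with summed medians from 2244 CPM in CAST/EiJ to 8352 CPM in WSB/EiJ, and astrocyte markers from 2439 CPM in C57BL/6J to 6927 CPM in A/J. Their part in the strain levels was not tested.

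The ranges of the other genes overlapped in every pair of strains. For Hmgcs1, strain medians lay between 59.0 CPM in C57BL/6J, which ran from 32.7 to 126 CPM, and 84.98 CPM in NOD/ShiLtJ, which ran from 46.8 to 119.8 CPM. For Insig1 they lay between 13.4 CPM in WSB/EiJ, which ran from 0.487 to 39.8 CPM, and 24.02 CPM in A/J, which ran from 18.1 to 29.4 CPM. Insig1 was thus steady in A/J and in CAST/EiJ (15.01 to 26.2 CPM) and ran over a wider range in each of the other 5 strains. Fdft1 had medians from 10.5 CPM in C57BL/6J to 31.6 CPM in WSB/EiJ, where single libraries ran from 1.57 to 76.1 CPM. Lss had medians from 10.2 CPM in C57BL/6J to 17.4 CPM in DBA/2J. The highest Lss library, at 114 CPM, belonged to WSB/EiJ, as did 2 of the 4 libraries with at most 3 counts. Fdps had a median of 0 CPM in A/J, CAST/EiJ, DBA/2J and WSB/EiJ, and the highest median, 1.97 CPM, in C57BL/6J, where 4 of 6 libraries were above 3 counts.

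Pairs of strains were also compared gene by gene with exact two-sided permutation tests on log2(CPM + 1). Over 21 pairs for each of the 8 genes, 16 comparisons had an exact p under 0.05, all of them in Idi1 (8), Sqle (4) and Srebf2 (4), and none passed after adjustment over all pairs and genes, where the smallest value was 0.156. The difference of Srebf2 between NOD/ShiLtJ and CAST/EiJ was 0.64 on the log2 scale (exact p = 0.00216, the smallest that 6 against 6 libraries allow). For Idi1, DBA/2J exceeded C57BL/6J by 2.31 and WSB/EiJ by 2.44 on that scale (exact p = 0.00433 and 0.00649). For Sqle, NOD/ShiLtJ exceeded CAST/EiJ by 1.49 and WSB/EiJ by 2.22 (exact p = 0.00433 for each). None of the 48 pairs of neighbours in the order of strain means differed beyond their spread, and the smallest exact p among them was 0.0671, for Idi1 in NOD/ShiLtJ and CAST/EiJ. Hmgcs1, Insig1, Fdft1, Lss and Fdps had no pair of strains with an exact p under 0.05. Of the comparisons of pairs in the 8 genes, 2 (1.19%) did not overlap. How often pairs of strains have an exact p under 0.05 or do not overlap in other genes was not tested. Neither count can therefore be set against a background rate.

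Wild-derived libraries had less Sqle and Idi1 on average than long-inbred libraries, but neither difference passed the threshold. On the log2 scale, wild-derived minus long-inbred libraries, the median difference of all genes tested was -0.38. Relative to it, Sqle stood at -1.34 and Idi1 at -1.22. Reads of all strains were aligned to mm10, and the study describes the wild-derived strains as richest in single nucleotide polymorphisms. The part of such sequence differences in the counts was not tested. The 12 wild-derived libraries had 0 to 13.2 CPM of Sqle with a median of 4.88 CPM, and the 31 long-inbred libraries had 0.0358 to 59.5 CPM with a median of 15.4 CPM, so the groups overlapped at the low end. The means were 5.10 ± 3.996 and 16.9 ± 12.97 CPM (SD, n = 12 and 31). On the log2 scale wild-derived minus long-inbred libraries gave -1.72 ± 0.54 (SE), with a 95% interval of -2.79 to -0.65 (edgeR, adjusted p = 0.150). The fit counted libraries and not strains as units, so these values do not measure the spread between strains. None of the 8 genes was called, against 0.749% of all genes tested. The Sqle difference was negative in all 20 alternative settings, from -2.23 to -1.29, and DESeq2 called it with -1.74 and an adjusted p = 0.0216. Within male libraries it was -1.65, within cortex -2.23 and within hippocampus -1.30, with edgeR adjusted p = 0.214, 0.396 and 0.817. Without WSB/EiJ, the strain with the shallowest libraries, it was -1.47 (adjusted p = 0.729 with edgeR), and without CAST/EiJ it was -2.11 (adjusted p = 0.248 with edgeR).

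For Idi1, the wild-derived libraries had 0 to 10.3 CPM with a median of 2.62 CPM, and the long-inbred libraries 0 to 42.99 CPM with a median of 7.96 CPM. The log2 difference was -1.60 ± 0.71 (SE; edgeR, adjusted p = 0.593). It was negative in all 20 alternatives, from -2.56 without CAST/EiJ to -1.06 without WSB/EiJ. C57BL/6J, a long-inbred strain, had Idi1 levels as low as those of WSB/EiJ, with means of 1.68 ± 1.84 and 1.61 ± 2.61 CPM (SD, n = 6 each), and these neighbours had an exact p = 0.829.

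Values of the remaining genes did not pass either. Fdps, at 0 in most libraries, gave -1.08 ± 1.53, and Insig1 gave -0.35 ± 0.38, Srebf2 -0.24 ± 0.17, Hmgcs1 -0.09 ± 0.21, Fdft1 0.23 ± 0.40 and Lss 0.70 ± 0.45 on the log2 scale (SE). Relative to the median of all genes tested (-0.38), they stood at -0.70, 0.03, 0.14, 0.29, 0.61 and 1.08 in the same order. The Lss value rested on WSB/EiJ, where 1 female hippocampus library held 114 CPM and 2 libraries were at or under 3 counts. It was 0.03 without WSB/EiJ and -0.35 within cortex. The intervals of Srebf2 (-0.57 to 0.09) and Hmgcs1 (-0.50 to 0.32) lay within 2-fold, whereas that of Fdps (-4.09 to 1.94) reached far beyond it. The median share of rRNA-like counts was 17.5% in the wild-derived libraries against 13.7% in the others, and in a fit with that share as a term Sqle gave -1.98 (edgeR, adjusted p = 0.0850).

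**Figure D3:**
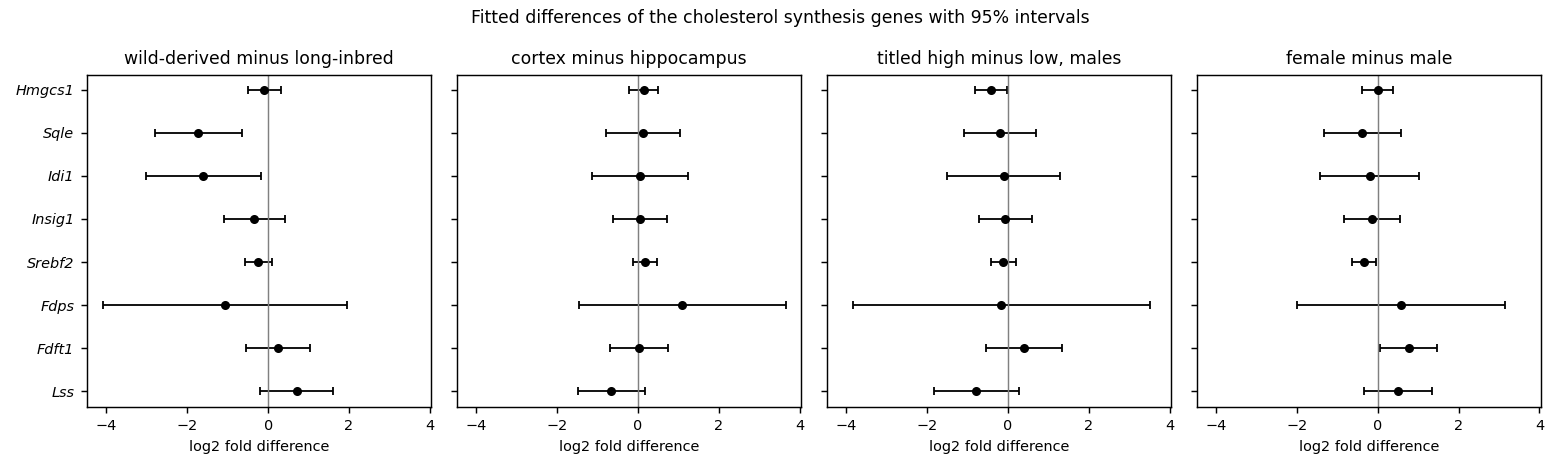
Fitted log2 differences with 95% intervals for the 8 genes in 4 comparisons, from the edgeR fits over all genes; points are estimates, bars are intervals, and the vertical line marks no difference. Only Sqle and Idi1 between wild-derived and long-inbred strains had estimates over 1 in size with intervals that did not reach 0, and no gene passed the adjusted threshold.

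No difference between cortex and hippocampus EC passed the threshold for these genes. Hmgcs1 had 32.7 to 151 CPM in cortex with a median of 72.9 CPM, and 21.8 to 132 CPM in hippocampus with a median of 62.6 CPM, with full overlap. The log2 difference, cortex minus hippocampus, was 0.14 ± 0.18 (SE; edgeR, adjusted p = 0.844). Srebf2 had 44.3 to 242 CPM in cortex and 65.7 to 188 CPM in hippocampus, with medians of 147 and 128 CPM and a log2 difference of 0.17 ± 0.15 (SE; edgeR, adjusted p = 0.690). The values of Sqle, Idi1, Insig1 and Fdft1 lay between 0.03 and 0.12, and their signs changed in 3 to 8 of 19 alternatives. Lss had the only negative value, -0.66 ± 0.42 (SE; edgeR, adjusted p = 0.669), with medians of 11.6 CPM in cortex and 15.2 CPM in hippocampus. Fdps had the largest positive value, 1.09 ± 1.296 (SE; edgeR, adjusted p = 0.805), which stayed positive in all 19 alternatives, from 0.45 to 2.73, on few counts. Oligodendrocyte markers summed to medians of 55.9 CPM in cortex and 114 CPM in hippocampus, and astrocyte markers to 4275 and 2893 CPM. No fit had these levels as a term, and their part was not tested. None of the 8 genes was called, where 0.0755% of all genes were, and the 95% intervals of Hmgcs1 (-0.23 to 0.51) and Srebf2 (-0.13 to 0.47) stayed within 2-fold. The interaction of strain with region called none of the 8 genes either, at adjusted p = 1 for each, and none of all 29120 genes (0.0%), of which 613 had an unadjusted p under 0.05, while DESeq2 called 18 genes.

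Libraries titled low had more Hmgcs1 on average than those titled high among males, without passing the threshold. The 14 libraries titled high ran from 32.7 to 100.5 CPM with a median of 61.8 CPM, and the 13 titled low from 43.5 to 132 CPM with a median of 81.2 CPM, so most of the range was shared. High minus low was -0.41 ± 0.20 on the log2 scale (SE; edgeR, adjusted p = 0.593), and it was negative in all 18 alternatives, from -0.60 in cortex to -0.25 in hippocampus. None of the 8 genes was called, against 1.06% of 27529 genes tested. Lss followed with -0.77 ± 0.52, and its median was 8.90 CPM in libraries titled high and 14.6 CPM in those titled low, but within cortex its value was 0.17. Markers of other cells moved with the title as well. The 10 astrocyte markers summed to 1469 to 7306 CPM in libraries titled high and 3167 to 19792 CPM in those titled low, the 10 pericyte markers had medians of 3677 and 6590 CPM, and the 20 endothelial markers medians of 29048 and 20920 CPM. Oligodendrocyte markers had medians of 35.8 and 121 CPM and neuronal markers of 124.9 and 288 CPM. No fit had marker levels as a term, and their part in the Hmgcs1 values was not tested.

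Female libraries had less Srebf2 and more Fdft1 on average than male libraries, and neither difference passed the threshold in edgeR. Srebf2 ran from 44.3 to 194 CPM in 16 female libraries with a median of 116 CPM, and from 102 to 242 CPM in 27 male libraries with a median of 149 CPM. Low values were thus found in female libraries while the upper parts of the ranges overlapped. Female minus male was -0.33 ± 0.15 on the log2 scale (SE; edgeR, adjusted p = 0.305), and DESeq2 called it at -0.46 with an adjusted p = 0.0176. With DESeq2's size factors edgeR also gave -0.46 (adjusted p = 0.0945), while the median log2 difference of all genes tested moved from -0.12 to -0.24. Relative to those medians, Srebf2 stood at -0.22 under either scaling. None of the 8 genes was called in the main test, against 2.85% of all genes.

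Fdft1 ran from 7.73 to 76.1 CPM in female libraries with a median of 23.5 CPM, and from 0 to 49.1 CPM in male libraries with a median of 15.6 CPM. Its log2 difference was 0.77 ± 0.35 (SE; edgeR, adjusted p = 0.322), and 0.02 in the fit that had the rRNA-like share as a term. Sqle was at or under 3 counts in 3 female and 0 male libraries, and its medians were 6.84 and 14.4 CPM. Insig1 was at or under 3 counts in 2 female libraries, both from WSB/EiJ, with medians of 23.55 and 20.2 CPM. For Fdps, 7 of 16 female and 21 of 27 male libraries held at most 3 counts, a count that equals a lower CPM in the deeper female libraries. Summed endothelial markers had medians of 30390 CPM in female and 22861 CPM in male libraries. As the shares of rRNA-like counts in female and male libraries did not overlap, sex and library composition cannot be told apart here.

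Few of the 8 genes varied together. Over the 43 libraries, Pearson's r of log2(CPM + 1) between 2 of the 8 genes lay between -0.27 and 0.48 in 28 pairs, with p-values from permutation tests adjusted over the 28. Sqle and Srebf2 correlated with r = 0.45 (permutation p = 0.00259, adjusted p = 0.0265) and Spearman's rho = 0.53 (permutation p = 0.0003, adjusted p = 0.00840), and r was 0.36 without the 2 libraries farthest from the median of Sqle. Sqle and Insig1 had r = 0.48 (permutation p = 0.00117, adjusted p = 0.0265) but rho = 0.35 (permutation p = 0.0228, adjusted p = 0.320). Idi1 and Insig1 had r = 0.44 (permutation p = 0.00284, adjusted p = 0.0265) and rho = 0.32 (permutation p = 0.0346, adjusted p = 0.323). Without the 2 farthest libraries r was 0.48 in each of these pairs. Within female and male libraries r was 0.51 and 0.25 for Sqle and Insig1, and 0.63 and 0.24 for Idi1 and Insig1, and none of these passed adjustment. The other 25 pairs did not pass. All values come from the same libraries and share their depth and scaling.

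Within female libraries, which were deeper in the median, Sqle and Srebf2 had r = 0.36 (permutation p = 0.167, n = 16), and within male libraries r = 0.35 (permutation p = 0.0762, n = 27). After strain and sex means were taken off, r was 0.34 (permutation p = 0.0291, adjusted p = 0.389). The relation therefore did not pass within either sex or within strains. Hmgcs1 and Sqle had r = -0.07 over all libraries, with -0.46 in female (permutation p = 0.0738) and 0.40 in male libraries (permutation p = 0.0381), and neither passed adjustment.

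**Figure D4:**
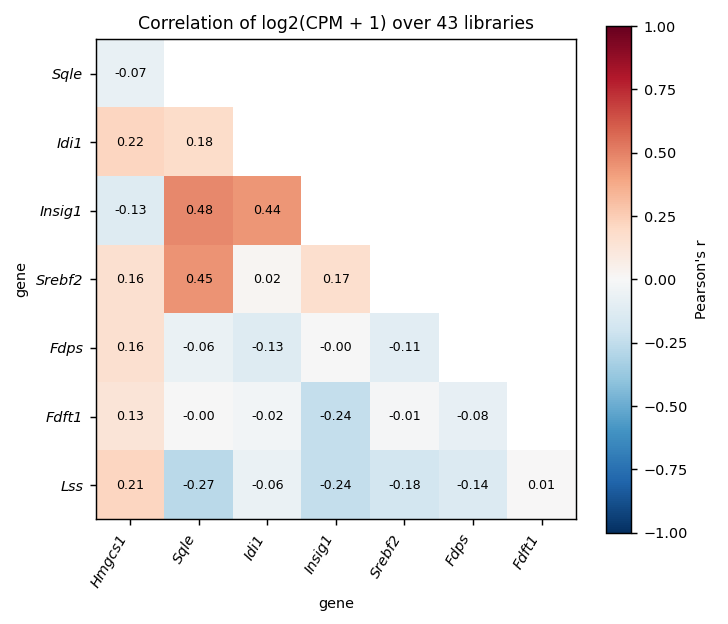
Pearson's r of log2(CPM + 1) between the 8 genes over 43 libraries, printed in each cell and coloured from blue (negative) to red (positive); both axes list genes. Sqle with Insig1 (0.48), Sqle with Srebf2 (0.45) and Idi1 with Insig1 (0.44) were the highest values, and 16 of the 28 values were negative.

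The genes whose levels were most like those of each pathway gene lay outside the pathway. Likeness was Pearson's r of log2(CPM + 1) over 43 libraries with the 8678 or 8679 other genes of at least 10 CPM in the mean, 55 of which (0.634%) belonged to the lists of sterol and lipid genes used here. Insig1 had the closest match, Smagp (r = 0.81), followed by Rab5c (0.79) and 4930453N24Rik (0.73). Hmgcs1 was closest to Asrgl1 (0.66), Acot11 (0.64) and Ptprs (0.59), and its nearest 100 genes held 4 lipid genes, the desaturase genes Fads1, Scd2, Scd1 and Fads2. Over the same libraries Hmgcs1 had r = 0.49 with the mean of the astrocyte markers and -0.42 with that of the endothelial markers. With neuronal, oligodendrocyte and pericyte markers r was 0.35, 0.19 and 0.04. The part of other cells in these likenesses was not tested. Sqle was closest to Slc25a22 (0.62), Rnf217 (0.58) and Mgll (0.58), and Insig1, Srebf2 and Mvk were among its nearest 100. Idi1 was closest to Mrpl58 (0.62), Serpine2 (0.59) and Npas2 (0.58), with Pmvk and Insig1 among the nearest 100. Srebf2 was closest to Arhgef17 (0.63), Frmd8 (0.57) and Rims2 (0.57). Lss was closest to Dpp8 (0.65), Pitpna (0.64) and Kdm7a (0.60), Fdft1 to 2210016L21Rik (0.65), Fam172a (0.61) and Anapc11 (0.58), and Fdps, at the lowest values, to Pip4k2a (0.49), E4f1 (0.48) and Nemf (0.47). These are descriptions over shared libraries.

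The other enzymes of cholesterol synthesis gave a like picture. Of 16 measured, the only call in any comparison was Pmvk, phosphomevalonate kinase, which was lower in wild-derived EC. Wild-derived libraries held 0 to 12.9 CPM of Pmvk with a median of 2.05 CPM and long-inbred libraries 0 to 44.3 CPM with a median of 15.1 CPM, and the log2 difference was -2.46 ± 0.62 (SE; edgeR, adjusted p = 0.0265). In that comparison, which counted libraries and not strains as units, 0.749% of all genes were called. The call was lost in 9 of 20 alternatives, among them those without WSB/EiJ, CAST/EiJ, A/J or NOD/ShiLtJ, with values from -2.85 to -1.97. On simulated data this edgeR test made more false calls than its threshold allows, so this call and those of the lists below that lie near the threshold are less sure than their adjusted p. Of the 16, 11 had negative and 5 positive values between wild-derived and long-inbred strains, with a median of -0.26, where the 8 genes above had 6 negative values and a median of -0.29 and all genes tested a median of -0.38. In the comparisons with no call, the most abundant of these enzyme genes were Lbr, with 82.5 CPM, and Sc5d, with 35.8 CPM in the mean. Lbr gave 0.61 ± 0.21 between male libraries titled high and low and Sc5d 0.52 ± 0.25 between cortex and hippocampus (SE; edgeR, adjusted p = 0.191 and 0.669).

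Of 12 genes of SREBP processing, sterol sensing and promoter binding, none was called in any of the 6 comparisons. Among all genes tested, the called share was 2.68% for strains, 0.749% for origin and 0.0755% for region. It was 1.06% for title, 2.85% for sex and 0.0% for the interaction. With only 12 genes, a count of 0 is not set apart from these shares. The 12 include Scap, the escort of the SREBPs, with a mean of 53.1 CPM, and Mbtps1, the first protease that cuts them, with 119 CPM. Sp1, which binds their target promoters, had a mean of 151 CPM. Mbtps1 gave 0.45 ± 0.15 between female and male libraries (SE; edgeR, adjusted p = 0.0857) and Sp1 gave 0.54 ± 0.16 between male libraries titled high and low (SE; edgeR, adjusted p = 0.0907).

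Among 12 other SREBP targets, which include the sterol carrier gene Stard4, only Fads1 was called, by sex and by title, where 2.85% and 1.06% of all genes were. Fads1, a fatty acid desaturase gene, had 5.33 to 189 CPM in female libraries with a median of 83.5 CPM, and 30.9 to 663 CPM in male libraries with a median of 167 CPM. Female minus male was -1.17 ± 0.25 (SE; edgeR, adjusted p = 0.00130), and -0.66 without a call when the rRNA-like share was a term. These shares did not overlap between the sexes. A sex call lost in such a fit, here or below, therefore does not tell sex from composition. The Fads1 call by sex was also lost in hippocampus alone and in libraries titled high. Between male libraries titled high and low Fads1 gave -0.93 ± 0.22 (SE; edgeR, adjusted p = 0.0172), with medians of 147 and 206 CPM, and the call was lost within either region and without A/J, CAST/EiJ or NOD/ShiLtJ.

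Of 12 genes of sterol removal, 2 were called among strains (Abcg1 and Apoe), where 2.68% of all genes were, 1 by origin (Abcg1), against 0.749%, and 1 by sex (Apoe), against 2.85%. Abcg1, a sterol exporter, was higher in wild-derived EC by 1.51 ± 0.36 on the log2 scale (SE; edgeR, adjusted p = 0.0135), with 11.95 to 213 CPM (median 59.3) against 0.236 to 73.1 CPM (median 20.8), and the call was lost in 9 of 20 alternatives, among them male libraries alone and those without WSB/EiJ, CAST/EiJ, 129S1/SvImJ or DBA/2J. The fit by origin counted libraries and not strains as units. Abcg1 also differed among strains (edgeR, adjusted p = 5.67e-04), with medians from 8.27 CPM in 129S1/SvImJ to 63.2 CPM in CAST/EiJ. That call was lost in male libraries alone and in hippocampus alone. Apoe, which encodes an apolipoprotein also made in large amounts by astrocytes, differed among strains (edgeR, adjusted p = 0.00168). Its medians ran from 811 CPM in CAST/EiJ to 2865 CPM in 129S1/SvImJ, and the call was lost in hippocampus alone. Female libraries had more Apoe by 0.88 ± 0.20 (SE; edgeR, adjusted p = 0.00242), a call lost in cortex alone, with the rRNA-like share as a term, where the value was -0.24, and without 129S1/SvImJ. The summed astrocyte markers had medians of 2539 CPM in female and 4058 CPM in male libraries, and their part in the Apoe values was not tested.

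Of 12 genes of fatty acid synthesis, 2 were called among strains (Acacb and Scd2), where 2.68% of all genes were, 1 by region (Scd1), against 0.0755%, 1 by title (Scd2), against 1.06%, and 1 by sex (Scd2), against 2.85%. Acacb, an acetyl-CoA carboxylase gene, differed among strains (edgeR, adjusted p = 1.53e-05), a call lost in hippocampus alone. CAST/EiJ, with 218 to 274 CPM, overlapped only 129S1/SvImJ, which reached 254 CPM, and the highest library of the other 5 strains had 197 CPM. Scd1, a stearoyl-CoA desaturase gene, was higher in cortex by 1.43 ± 0.25 (SE; edgeR, adjusted p = 0.00164), with 33.5 to 889 CPM in cortex against 12.5 to 294 CPM in hippocampus, and lost the call only in female libraries alone of 19 alternatives. The part of the astrocyte and oligodendrocyte marker levels of the regions, given above, in the Scd1 values was not tested. Scd2, its paralog, fell in libraries titled high by 0.78 ± 0.19 and in female libraries by 1.01 ± 0.20 (SE; edgeR, adjusted p = 0.0177 and 3.27e-04). The first call was lost within either region and without C57BL/6J or NOD/ShiLtJ, and the second in hippocampus alone, in libraries titled high and with the rRNA-like share as a term. Among strains Scd2 was called at an adjusted p = 0.0418 in edgeR but not in 13 of 23 alternatives. In the comparison of titles the same male libraries had the astrocyte and pericyte marker levels given above, and their part in the Fads1 and Scd2 values was not tested.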

How the data were processed

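The authors deposited raw counts per gene, which were made from single-end reads of a SMARTer Stranded Total RNA Pico Input library with HISAT2 2.1.0, SAMtools 1.9 and featureCounts of Subread 1.4.4 on mm10, per the submitters' processing notes. Strand use in counting is not given in the sources used here. Library totals and CPM were computed here from the 54532 genes with TMM factors (edgeR 4.0.16, R 4.3.3). No 2 libraries of a strain held the same counts. The 29120 genes that reached 0.5 CPM in 1 or more libraries entered edgeR's quasi-likelihood test, which used a trended dispersion and Benjamini-Hochberg adjustment over all of them, and a gene was called below 0.05. Comparisons were among strains, by origin, by region, by title tag in males, by sex, and of strain with region. Pairs of strains were tested by exact permutation and correlations with 100000 resamples in numpy 2.4.6, with ranks from scipy 1.17.1. Alternatives included DESeq2 1.42.0, its size factors, other filters, added terms and left-out libraries or strains. Fits were tested on simulated data with known changes, where the edgeR test made more false calls than its threshold allows. Gene positions are GENCODE M21 on GRCm38, and copies were found with BLAST 2.17.0. Sequences are from RefSeq. Some genes of the lists are not reported here.

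The genes and gene lists were chosen with earlier results of these data known. Named were the 8 genes, up to 4 called genes of each list by smallest p (where none was called, the 2 of highest mean CPM), and the 3 genes most alike to each of the 8. Scap and the lipid genes among the nearest 100 were named outside this rule after their values were seen.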

Additional observations from a re-analysis of the deposited data

Results flagged for a closer look

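Of 56 groups of a gene in a strain, 7 held a library that lay far from the others of its strain by Dixon's test, and chance flags about 1 in 20 groups. That rate does not hold for 3 of the 7, all of Fdps, where every other library of the strain was at 0 and any count would stand apart. In DBA/2J, Sqle had its lowest library at 0.0358 CPM (2 counts, female hippocampus), against 11.04 to 22.7 CPM in the other 4. In A/J, Idi1 had its lowest library at 1.25 CPM (26 counts, female hippocampus), against 17.7 to 42.99 CPM. Each of these was the only female library of its strain. In C57BL/6J, Srebf2 had its highest library at 242 CPM (male cortex, titled low), against 110.2 to 126 CPM, and Lss its lowest at 0 CPM (male hippocampus, titled low), against 7.36 to 27.3 CPM. Fdps was at 0 in all but 1 library of 3 strains, at 11.6 CPM in DBA/2J (648 counts, female hippocampus), 9.81 CPM in WSB/EiJ (16 counts, male hippocampus) and 0.176 CPM in A/J (1 count, male cortex), the last below the 3 counts taken as the floor.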

How the results depend on the processing

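No gene of the 8 passed the threshold in the main edgeR tests, and that count stayed at 0 in most alternatives. It became 2 among strains with 1 dispersion from the most abundant genes (Idi1 and Sqle), 1 between wild-derived and long-inbred strains with that dispersion and with DESeq2 (Sqle in each), and 1 between female and male libraries with DESeq2 (Srebf2). Leaving out each A/J or DBA/2J library in turn gave 0 genes called among strains each time. The count of correlations that passed by both Pearson's r and Spearman's rho, 1 over all libraries, was 0 with strain and sex means taken off, 0 in female libraries and 0 in male libraries. For the genes taken singly, 783 of 851 values kept their side of the threshold and, where they had one, their direction. Tests among strains and of the interaction give no direction, so the 783 include values that could not change sign. A further 5 newly passed the threshold, and 63 values, none of them past it, changed sign as follows, on the log2 scale. The cause was not tested. Between wild-derived and long-inbred strains, the Hmgcs1 value of -0.091 turned to 0.12 in libraries titled high, 0.026 in hippocampus and 0.0085 above the minimum of 3000000 counts. That of Fdps, -1.08, turned to 0.66 in hippocampus. That of Fdft1, 0.23, turned to -0.25 in males, -0.053 above the minimum of 3000000 counts and -0.39 without WSB/EiJ. That of Lss, 0.70, turned to -0.35 in cortex. Between cortex and hippocampus, the Hmgcs1 value of 0.14 turned to -0.033 without 129S1/SvImJ. That of Sqle, 0.12, turned to -0.10 in females, -0.12 in libraries titled high and -0.0023 without DBA/2J. That of Idi1, 0.054, turned to -0.022 in libraries titled high, -0.11 with 1 dispersion, -0.037 above the minimum of 3000000 counts and -0.11 without DBA/2J. That of Insig1, 0.051, turned to -0.055 with other labels as terms, -0.55 in females, -0.35 in libraries titled high, -0.046 with 1 dispersion and -0.13 without NOD/ShiLtJ. That of Fdft1, 0.026, turned to -0.059 with the rRNA-like share as a term, -0.00098 with other labels as terms, -0.17 in females, -0.026 in libraries titled high, -0.061 with 1 dispersion, -0.15 above the minimum of 3000000 counts, -0.13 without A/J and -0.030 without DBA/2J. Between male libraries titled high and low, the Idi1 value of -0.10 turned to 0.36 with the rRNA-like share as a term, 0.056 in cortex, 0.43 without A/J and 0.0069 without CAST/EiJ. That of Insig1, -0.057, turned to 0.25 in hippocampus, 0.085 without DBA/2J and 0.12 without WSB/EiJ. That of Srebf2, -0.11, turned to 0.028 in hippocampus. That of Fdps, -0.16, turned to 1.47 in hippocampus and 4.23 without C57BL/6J. That of Lss, -0.77, turned to 0.17 in cortex. Between female and male libraries, the Hmgcs1 value of 0.0032 turned to -0.12 with DESeq2, -0.12 with its size factors, -0.028 without a filter, -0.0096 with the stricter filter, -0.0053 without the rRNA-like genes, -0.37 with the rRNA-like share as a term, -0.036 in hippocampus, -0.011 with 1 dispersion, -0.032 above the minimum of 3000000 counts, -0.037 without CAST/EiJ, -0.031 without DBA/2J, -0.012 without NOD/ShiLtJ and -0.10 without WSB/EiJ. That of Idi1, -0.19, turned to 0.46 without A/J. That of Insig1, -0.14, turned to 0.21 with the rRNA-like share as a term, 0.30 in hippocampus, 0.013 with 1 dispersion, 0.046 without C57BL/6J and 0.035 without WSB/EiJ. That of Fdps, 0.58, turned to -0.75 with the rRNA-like share as a term, -0.0010 with other labels as terms and -0.14 without DBA/2J. That of Lss, 0.50, turned to -0.28 in cortex. No paired analysis was possible because only 4 titles, all of female 129S1/SvImJ libraries, end in a number, no label says what it marks, and cortex and hippocampus share only 1 such number. Without 129S1/SvImJ, 0 of the 8 genes were called by origin, region, title or sex. The single dispersion, the minimum of 3000000 counts and the correlations within each sex were chosen after seeing the data. Fits with added terms left out 2113 to 5624 genes whose fitted count exceeded 5 times the largest observed one. The number of all genes called moved with the setting: DESeq2 called 1314 among strains, 395 by origin, 55 by region, 640 by title and 1000 by sex, against 781, 218, 22, 293 and 830, and 1 dispersion 3646, 718, 1286, 976 and 1842. With the rRNA-like share as a term, a share that did not overlap between the sexes, 56 genes were called by sex. The split by sex was 745 higher and 85 lower, and 430 and 155 with DESeq2's size factors, and the split by origin was 148 and 70, and 124 and 83. Counts of 3 or fewer limit Fdps, Idi1 and Lss, so small differences in these genes were not detectable at this depth.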
